A study of Mus musculus with 6 samples.

Results

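Voltage-gated cation channel subunits, the proteins that carry and shape the potassium, sodium, calcium and hyperpolarization-activated currents of neurons, were examined in adult mouse retina with and without the transcription factor Onecut2. Members were the genes whose symbol on the array platform begins with Kcn, with Scn or Hcn and a number, or with Cacn, leaving out Kcnj8, Kcnj10, Cacna1f, Cacna2d4 and Cacnb2. Each gene was read from its brightest probe set over all 6 arrays, and it was counted as measured where at least 1 genotype had a mean above 7 in log2 intensity. This gave 71 channel genes of 11065 genes measured in all, from 116 channel symbols on the array, and the other 45 had no probe set past that level. The symbol rule takes in relatives that do not sense voltage, among them inward rectifiers and tandem-pore channels, as well as 1 noncoding RNA, Kcnq1ot1. It also takes in genes such as Cacng2 and Cacng4, whose products are partners of AMPA receptors. No channel gene passed the test of a difference between genotypes after adjustment, and 55 of the 71 had a lower mean in OC2-KO. With a single OC2-KO array left out 29 of the 71 did, while the OC2-WT array of the same replicate number was kept.

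The retinas came from adult mice lacking Onecut2 (OC2-KO, 3 arrays) and from wildtype littermates (OC2-WT, 3 arrays), and the labels give the stage only as adult. The knockout is a null allele for which no Cre driver or retina-specific promoter is named. Onecut2 itself was higher in OC2-KO. On each of its 3 probe sets every OC2-KO array lay above every OC2-WT array, with log2 differences from 2.27 to 2.84. For one of them the log2 values were 6.61, 5.96 and 6.38 (OC2-WT) against 8.87, 8.58 and 8.69 (OC2-KO). The study reported this rise from the same arrays, so Onecut2 separates the labels but is no independent check of them. It states that the array probes match the gene's 3' part. Upstream coding sequence was almost undetectable by qPCR, and no protein was seen in its staining. The study proposes that leftover Onecut2 sequence is raised as RNA without giving functional protein. Whole retina was hybridised, so a lower signal from fewer cells of a type cannot be told apart from less RNA per cell. Whether the 3 arrays of a genotype stand for 3 animals is not given in the labels, so the p-values reflect array-to-array spread, part of which may be technical.

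Voltage-gated channels open a selective pore when the membrane potential changes. Potassium channels repolarize the cell, sodium channels carry the action potential of ganglion and some amacrine cells, and calcium channels couple voltage to transmitter release. Most retinal neurons, photoreceptors, horizontal and bipolar cells among them, signal with graded potentials that these channels filter and amplify. Pore-forming subunits assemble with auxiliary subunits that set their gating, their number at the surface and their place in the cell.

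The arrays were compared before the genes. The median intensity ran from 94.9 to 110 over the 6 arrays, and their number limits the precision. Arrays of the same replicate number varied together and are called pairs. Pair 3 joined an OC2-WT array with high Xist, the X-inactivation RNA of female cells, at 12.60 and an OC2-KO array at 2.20, whereas the arrays of pair 1 were both low (2.40 and 4.77) and those of pair 2 both high (11.98 and 12.25), on the log2 scale. The 3' control probe set of Actb exceeded the 5' one by log2 values of 2.95 and 3.39 in pair 3 and between 0.71 and 1.41 elsewhere. A larger excess marks less intact RNA. The Actb excess did not separate the genotypes (p = 0.6 by a two-sided exact permutation test that cannot go below 0.1). For Gapdh the same difference was 1.04 and 1.29 in pair 3 and between -0.48 and -0.29 elsewhere. All 6 rod markers and all 6 cone markers on the array passed the filter, 4 of 6 striated muscle markers did not (Ckm, Tnnt3, Myl1 and Myh1), and of 5 pigment epithelium markers Ttr, Rpe65 and Lrat passed and Mlana and Tyr did not. All 5 lens markers passed as well. The summed lens intensity ran from 2622 to 28681 in OC2-WT and from 15982 to 24387 in OC2-KO, and 5 of 5 lens markers had a higher mean in OC2-KO.

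OC2-KO replicate 1 stood apart for the channel genes. Of the 71 genes, 38 had their lowest value of the 6 arrays there, which is 53.5%, and over all 11065 genes the share was 24.1%. Measured from each gene's mean over the 6 arrays, the median channel gene deviated by -0.49 on that array. The other deviations were -0.036, 0.23 and 0.079 in OC2-WT replicates 1, 2 and 3 and 0.25 and 0.0099 in OC2-KO replicates 2 and 3, all as log2 intensities. For all genes these medians lay between -0.025 and 0.046. Neighbouring gene groups were also low on this array, since 10 of 13 GABA and glycine receptor subunits and 4 of 6 AMPA and kainate receptor subunits had their lowest value there. Of the 10 potassium channel auxiliary subunits 1 was lowest there, and of the 15 Kv pores 11. Several cell type lists were low there too. Their median deviations on OC2-KO replicate 1 were -0.49 for 6 Müller glia markers, -0.34 for 7 amacrine, -0.32 for 7 ganglion, -0.25 for 6 bipolar, -0.49 for 5 horizontal and -1.18 for 5 pigment epithelium markers, whereas rod and cone markers stood at 0.27 and 0.28. In pair 3 rod markers stood at 0.84 (OC2-WT) and 0.57 (OC2-KO) and cone markers at 0.20 and 0.25. On the remaining arrays both were negative. The part of cell composition in the channel values was not tested.

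**Figure D1:**
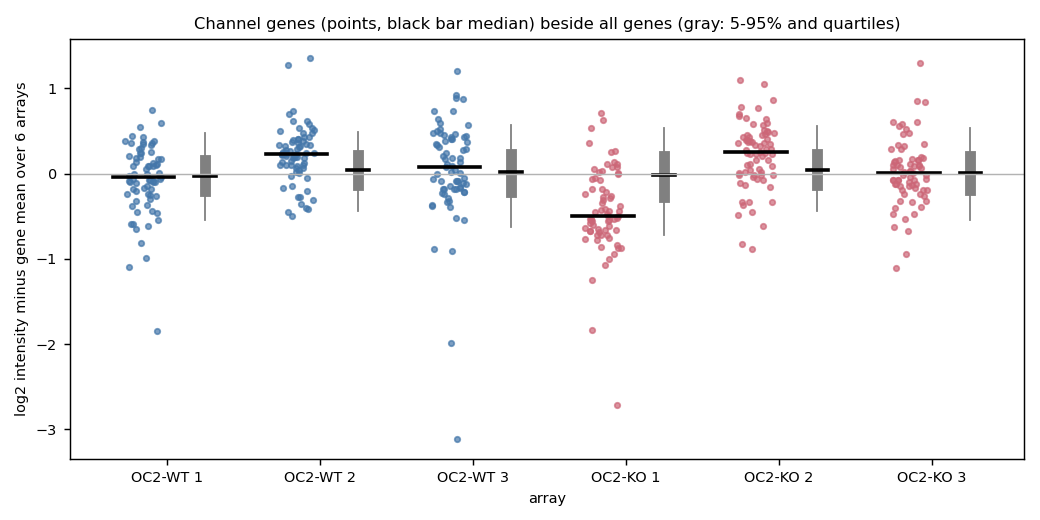
Log2 intensity of each of 71 channel genes minus that gene's mean over 6 arrays (vertical axis), by array (horizontal axis), with points for genes, black bars for medians, and gray lines and boxes for the 5 to 95% range and quartiles of all 11065 genes. The median channel gene sits at -0.49 on OC2-KO replicate 1 and between -0.036 and 0.25 on the other arrays, whereas the medians of all genes stay near 0.

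The comparison of OC2-KO with OC2-WT addresses which transcripts have another level in mature retina when Onecut2 is missing. By limma, 0 of the 71 channel genes passed an adjusted p of 0.05, as did 0% of all genes, and the smallest adjusted p of a channel gene was 1.00. At an unadjusted p of 0.05, 3 channel genes were counted with limma, Cacna1c, Kcnu1 and Cacna2d3, all lower in OC2-KO. That is 4.23% of the 71, where 0.253% of all genes were counted lower, 0.732% higher and 0.985% in either direction. Of these 3, Cacna1c and Kcnu1 were measured only through their OC2-WT level, and a gene that passes in this way had to differ. Cacna1e and Kcnj5 also passed only through OC2-WT, and Kcnh3 and Scn4b only through OC2-KO. Among the 65 channel genes above 7 in both genotypes, 1 was counted, Cacna2d3, where 0.141% of such genes over the whole array were counted lower and 0.632% in either direction.

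Of the 71 channel genes 55 had a negative log2 difference, 77.5%, against 51.2% of all genes. The median difference was -0.14, and over all genes it was -0.0048. Most channel genes therefore differed by little, with 7 of 71 past 0.5 in size. The lean was largest in pair 1. In pair 1 the median channel gene differed by -0.35 and 57 of 71 were below 0, in pair 2 by 0.024 with 30 below 0, and in pair 3 by -0.061 with 43 below 0. Without OC2-KO replicate 1 the median over the same 71 genes was 0.033 and 29 were below 0, 40.8%, against 47.5% of all genes. The sign of the group median thus turned when 1 array was left out while its partner, OC2-WT replicate 1, was kept. Values without OC2-KO replicate 1, here and below, keep that partner, so they are not comparisons within pairs. Within pairs 2 and 3, both intact, the medians given above had opposite signs. Over all 11065 genes, 5519, 5693 and 5636 were below 0 in pairs 1, 2 and 3. Genes lower in all 3 pairs numbered 12, or 16.9%, and genes higher in all 3 numbered 2, or 2.82%, where all genes gave 12.1% and 10.9%. A gene at the median SE of 0.30 would need a log2 difference of 0.70 for an unadjusted p of 0.05, and a gene with a smaller SE less.

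**Figure D2:**
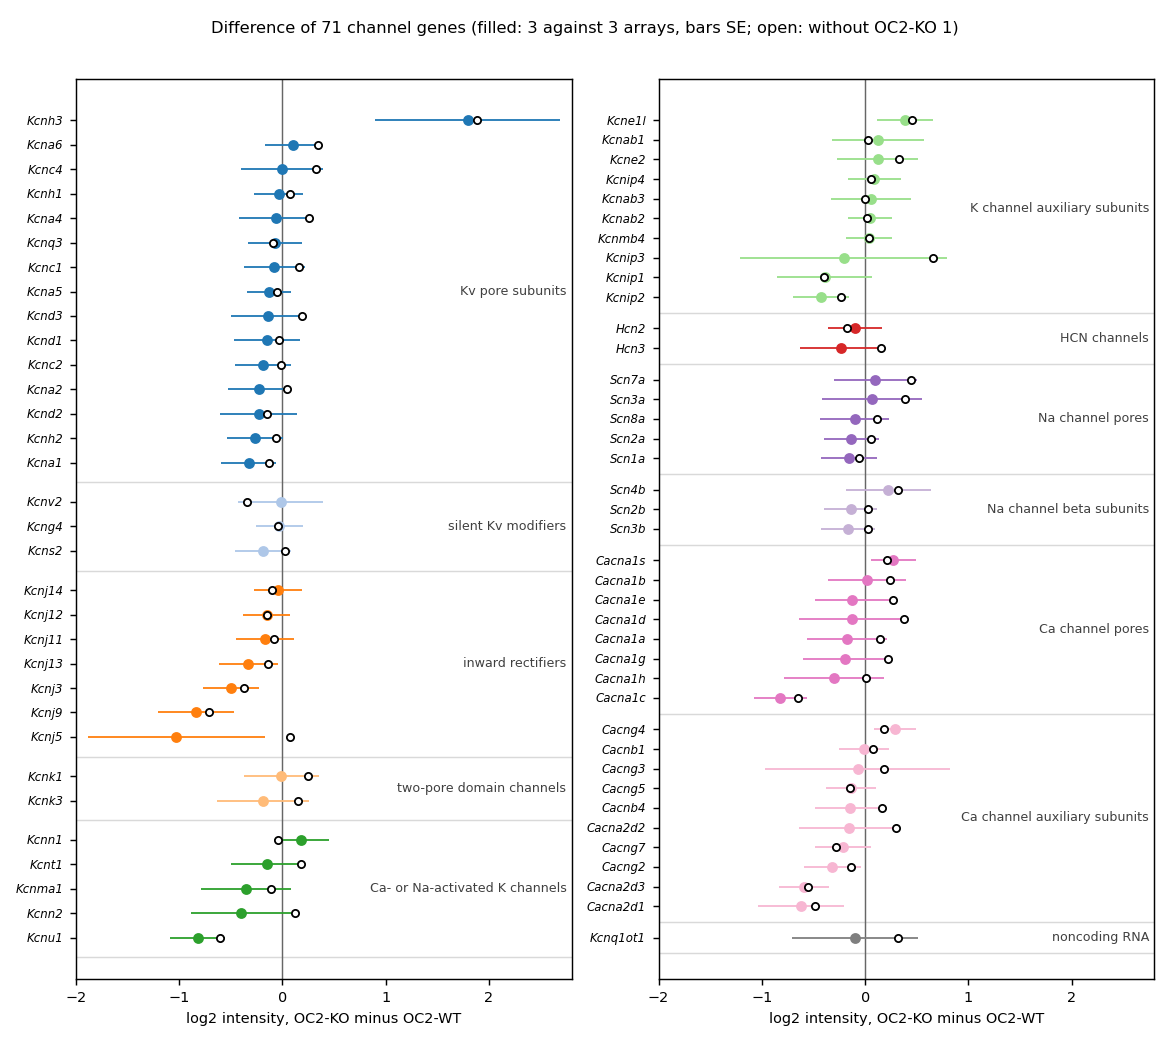
Log2 difference between OC2-KO and OC2-WT (horizontal axis) for each of 71 channel genes (vertical axis), grouped by subunit family, with filled points and bars for the estimate from 3 against 3 arrays and its SE, and open points for the difference without OC2-KO replicate 1. Of the filled points 55 lie below 0, and of the open points 29.

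Genotypes did not overlap in 4 channel genes, 3 lower and 1 higher in OC2-KO. Over all genes the shares were 1.83% lower and 1.95% higher, together 3.78%, against 4.23%, 1.41% and 5.63% of the 71. Above the filter in both genotypes, 1 channel gene was lower without overlap, Cacna2d3, where 1.61% of such genes were.

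Cacna2d3 encodes an auxiliary subunit that raises the surface number of calcium channels and takes part in synapse formation. Its log2 intensity read 11.25, 11.84 and 11.79 (OC2-WT) against 10.95, 10.96 and 11.19 (OC2-KO). Each OC2-KO array lay below each OC2-WT array, with the narrowest gap between OC2-WT replicate 1 and OC2-KO replicate 3. The difference was -0.59 ± 0.24 (SE), with OC2-WT 1.51-fold brighter (limma, unadjusted p = 0.0432, adjusted p = 1.00). With any array or pair left out it ran from -0.78 to -0.45, and over all alternatives its unadjusted p ran from 0.00327 to 0.247 (limma and the other tests run). It is the single channel gene that was well measured in both genotypes and past the unadjusted threshold.

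Cacna1c encodes the pore of an L-type calcium channel of heart, muscle and neurons. Its values were 7.01, 7.52 and 7.17 (OC2-WT) against 6.07, 6.67 and 6.49 (OC2-KO), so the groups were apart and the OC2-KO arrays lay below the filter level. The log2 difference was -0.82 ± 0.25 (SE), in 3 of 3 pairs (limma, unadjusted p = 0.0140). Kcnu1, a pH-sensitive potassium channel known from sperm, was as faint, with values of 6.98, 7.23 and 7.20 (OC2-WT) against 5.89, 6.74 and 6.32 (OC2-KO). It differed by -0.82 ± 0.27 (SE) (limma, unadjusted p = 0.0180). When limma's variance was allowed to follow intensity, the unadjusted p was 0.0657 for Cacna1c and 0.0766 for Kcnu1, and the 2 genes then counted were Cacna2d3 (0.0236) and Kcnj9 (0.0426). The signals of Cacna1c and Kcnu1 sat next to the level set for expression, where a fold is uncertain. Just inside that level were Cacna1e (7.05 in OC2-WT and 6.92 in OC2-KO) and Kcnu1 (7.14 and 6.32), and just outside were Kcnk2 (6.93 and 6.97) and Kcnh8 (6.85 and 6.42), as mean log2 intensities.

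Cacng4 encodes a transmembrane protein that escorts AMPA receptors to the synapse. On its brightest probe set it read 9.59, 9.47 and 9.56 (OC2-WT) against 10.04, 9.67 and 9.77 (OC2-KO), a difference of 0.29 ± 0.21 (SE) (limma, unadjusted p = 0.204). The 3 OC2-WT arrays lay close together below every OC2-KO array. Its other probe set past the filter had a difference of -0.20, so the probe sets of this gene disagreed in sign. Of the 26 channel genes with more than 1 probe set past the filter, 16 had differences of one sign and 10 of both. The widest disagreements included Kcnab2, at 0.044 on its brightest probe set and -1.28 on another, and Scn8a, at -0.10 on its brightest and from -0.85 to 0.36 on others.

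**Figure D3:**
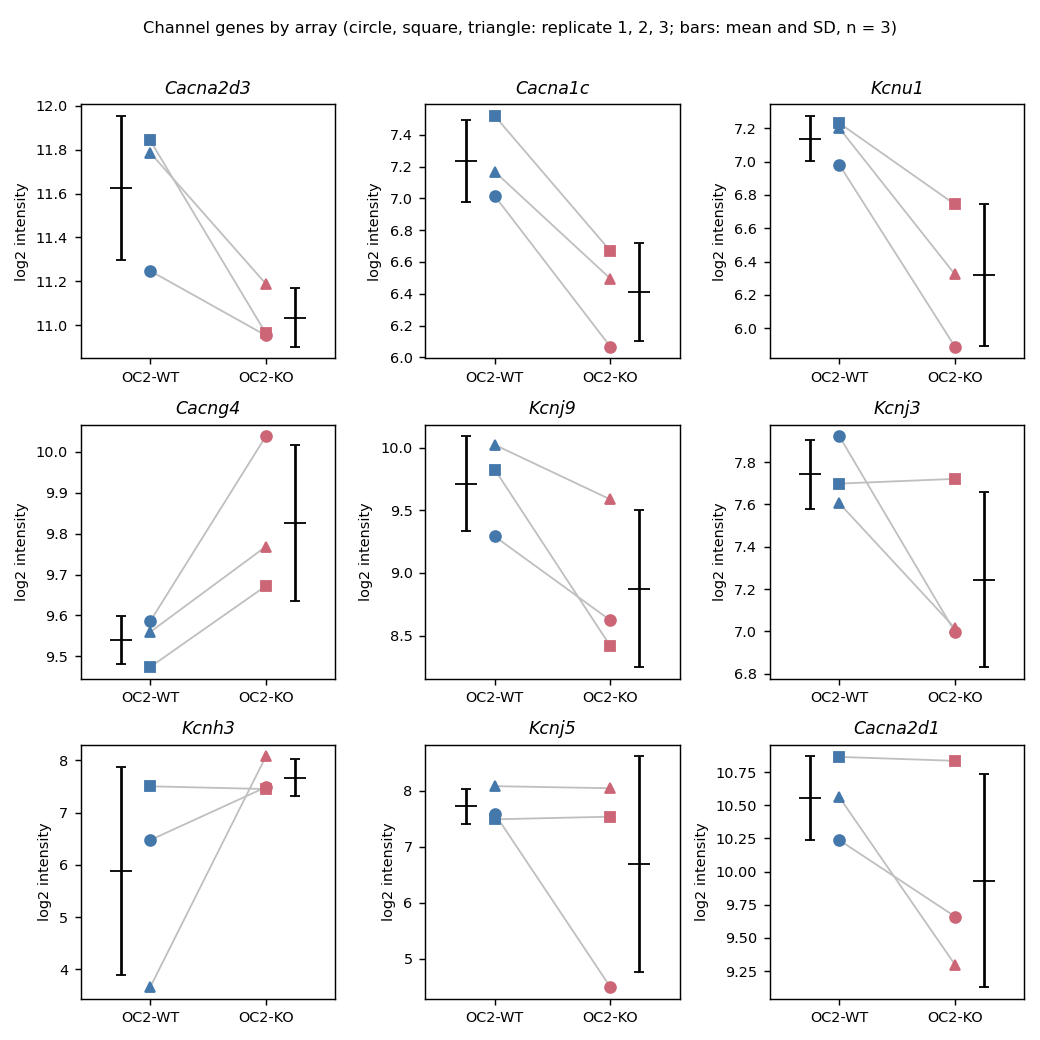
Log2 intensity (vertical axis, scaled per panel and not from 0) of 9 channel genes by genotype (horizontal axis), with circles, squares and triangles for replicates 1, 2 and 3, gray lines joining pairs, and black bars beside them for each genotype's mean and SD (n = 3). The genotypes are apart in Cacna2d3, Cacna1c, Kcnu1 and Cacng4, whereas in Kcnj5 the difference comes from OC2-KO replicate 1 at 4.50 and in Kcnh3 from OC2-WT replicate 3 at 3.66.

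Promoter letters were examined because Onecut2 binds DNA. RefSeq promoters of assembly GRCm38.p6, from 250 bases before to 50 after the start, were found for 51 of the 71 genes. The letters ATCAAT, a core of the Onecut site, were searched on both strands. They stood in 4 of the 51 genes, 7.84%, and in 8.63% of 27025 genes with a promoter. The letters ATCGAT stood in 0 of the 51 and in 1.02% of all genes. The 4 windows are shown because they are the only matches among the 51 genes, each 5′ to 3′ on the strand of the gene with the matching letters or their reverse complement in capitals, and they lie at chr3:64949181-64949206 (plus strand), chr11:33993356-33993381 (minus), chr5:49285720-49285745 (minus) and chr15:100936226-100936251 (plus).
Kcnab1: agaaacagaaATCAATtcaaattact
Kcnip1: ggctccaagaATTGATctgttagatt
Kcnip4: atgctgattcATTGATgagctggcat
Scn8a: tagagcggtgATTGATtaacgctgcc
The first capital letter lies at -21, -178, -76 and -35 from the start in the order shown. The log2 differences of these genes were 0.12, -0.39, 0.088 and -0.10, none past an unadjusted p of 0.05. Cacna2d3, which was past it, held neither set of letters. Its 250 bases before the start, at chr14:29721865-29722114 on the minus strand, are shown because that gene was measured in both genotypes and counted, and they are 80.0% G or C with 30 CG pairs.
Cacna2d3: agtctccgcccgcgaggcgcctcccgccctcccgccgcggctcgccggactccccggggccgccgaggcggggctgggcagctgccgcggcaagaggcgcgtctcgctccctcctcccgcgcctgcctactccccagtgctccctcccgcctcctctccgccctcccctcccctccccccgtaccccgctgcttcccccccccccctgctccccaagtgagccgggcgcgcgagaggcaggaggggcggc
A match says only that the letters stand in this window, and its absence says nothing of the factor.

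Among the calcium channel pores, 6 of 8 genes were below 0, with a median of -0.15 that became 0.22 without OC2-KO replicate 1. Within pairs 1, 2 and 3 that median was -0.48, 0.099 and -0.085. The P/Q-type gene Cacna1a and the N-type gene Cacna1b, whose channels trigger release at conventional synapses, differed by -0.18 and 0.016. Cacna1d, an L-type channel of retinal neurons, read 7.83, 8.89 and 8.91 (OC2-WT) against 7.41, 9.26 and 8.58 (OC2-KO), and its difference of -0.13 ± 0.52 (SE) was within the spread of the arrays. The T-type genes Cacna1g and Cacna1h, whose channels open near rest, differed by -0.20 and -0.30. Cacna1e, the R-type gene, differed by -0.13. Cacna1s, the L-type channel of skeletal muscle, was higher in 3 of 3 pairs by 0.27 ± 0.22 (SE).

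The 10 genes classed by symbol as calcium channel auxiliary subunits had 9 below 0 and a median of -0.15. The class holds Cacng genes, of which Cacng2 and Cacng4 encode AMPA receptor partners, so it is not limited to calcium channels. Cacna2d1, the subunit that binds gabapentin, read 10.24, 10.86 and 10.56 (OC2-WT) against 9.66, 10.83 and 9.30 (OC2-KO). OC2-KO replicate 2 lay among the OC2-WT arrays, and the difference of -0.62 ± 0.42 (SE) had an interval from -1.60 to 0.36 (limma, 95%), with -0.30 on its other probe set past the filter. Cacna2d2 differed by -0.16 and the beta subunit gene Cacnb4, which chaperones the pore to the membrane, by -0.15. Cacng2, which encodes the AMPA receptor partner stargazin, was below 0 in 3 of 3 pairs, with a log2 difference of -0.32 ± 0.27 (SE). Cacnb1, Cacng5 and Cacng7 differed by -0.015, -0.14 and -0.22, and Cacng3 by -0.073 ± 0.90 (SE) with OC2-WT replicate 3 at 5.43.

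Inward rectifiers hold the resting potential, and the 7 measured Kcnj genes that the rule takes in were below 0, with a median of -0.33 that was -0.14 without OC2-KO replicate 1. Kcnj10, which the rule leaves out, was above 0 at 0.29. The lowest were the 3 genes for channels opened by G proteins. Kcnj9 read 9.29, 9.83 and 10.02 (OC2-WT) against 8.62, 8.41 and 9.59 (OC2-KO). It was lower in 3 of 3 pairs, and only OC2-KO replicate 3 reached into the OC2-WT range. Its difference was -0.84 ± 0.37 (SE), with OC2-WT 1.79-fold brighter (limma, unadjusted p = 0.0550), and its other probe set past the filter differed by -0.52. With the replicate block, which compares arrays within pairs, the unadjusted p of Kcnj9 was 0.0125. That made 4 of 71 genes counted, 5.63%, all lower, beside 3.53% of all genes in either direction and 1.38% lower, and the adjusted count stayed 0 (limma).

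Kcnj3, a partner of Kcnj9 in the same channels, read 7.92, 7.70 and 7.61 (OC2-WT) against 6.998, 7.72 and 7.02 (OC2-KO). It differed by -0.50 ± 0.27 (SE), with OC2-KO replicate 2 among the OC2-WT values. Kcnj5 had the most negative estimate of any channel gene, -1.03 ± 0.86 (SE), but its values were 7.59, 7.49 and 8.08 against 4.50, 7.54 and 8.04. Without OC2-KO replicate 1 the difference of Kcnj5 was 0.071, so it rested on that array. Kcnj14 had the difference nearest 0 in the family, with values of 13.39, 13.13 and 13.09 (OC2-WT) against 13.26, 12.84 and 13.37 (OC2-KO), with a difference of -0.046 ± 0.23 (SE). Kcnj11, the pore of the ATP-sensitive channel, and Kcnj12 differed by -0.17 and -0.15.

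Kcnj13 encodes the inward rectifier of pigment epithelium, a tissue that can adhere to an isolated retina. It read 9.16, 9.66 and 9.88 (OC2-WT) against 8.85, 9.36 and 9.50 (OC2-KO), lower in 3 of 3 pairs by -0.33 ± 0.29 (SE). The summed intensity of 5 pigment epithelium markers ran from 20969 to 75001 in OC2-WT and from 12229 to 61150 in OC2-KO, and 3 of the 5 were below 0 in OC2-KO. The part of adhering pigment cells in the Kcnj13 values was not tested.

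Pores of the Kv group, the delayed rectifiers and transient channels that repolarize neurons, numbered 15, of which 13 were below 0 with a median of -0.13. Without OC2-KO replicate 1 the median was 0.044, and within pairs 1, 2 and 3 it was -0.34, 0.040 and -0.044. Kcna1, a channel of axons and terminals, read 10.14, 10.54 and 10.41 (OC2-WT) against 9.65, 10.43 and 10.04 (OC2-KO). It was lower in 3 of 3 pairs, by -0.32 ± 0.27 (SE), with OC2-KO replicate 2 inside the OC2-WT range, and its other probe sets past the filter differed by -0.058 and -0.12. Its partner Kcna2 differed by -0.23. Kcnc1 and Kcnc2, whose channels allow fast firing, differed by -0.079 and -0.18, and the transient A-type gene Kcnd2 by -0.23 on its brightest probe set and by -0.055 and 0.22 on the others past the filter. The other Kv pores below 0 (Kcna4, Kcna5, Kcnc4, Kcnd1, Kcnd3, Kcnh1, Kcnh2 and Kcnq3) ran from -0.26 to -0.0043. Except for Kcna1, the SE without a block of each of these brightest probe sets exceeded the size of its difference. With the replicate block the SE was 0.16 for Kcnh2, 0.19 for Kcna2 and 0.21 for Kcnd2, each below the size of the difference. None of these was at an unadjusted p of 0.05 with the block (limma).

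Kcna6 and Kcnh3 were the Kv pores above 0, the former at 0.11. Kcnh3, of the ether-à-go-go-like channels, had the highest estimate of all channel genes, 1.79 ± 0.89 (SE), and was measured only through OC2-KO. Its values were 6.48, 7.50 and 3.66 (OC2-WT) against 7.49, 7.45 and 8.08 (OC2-KO). The gap came mostly from OC2-WT replicate 3, and in pair 2 the difference was -0.052. The electrically silent subunits Kcnv2, Kcng4 and Kcns2, which alter the gating of other Kv pores, differed by -0.017, -0.030 and -0.19. Kcnv2, the modifier of photoreceptor potassium current, ran from 9.89 to 10.68 in OC2-WT and from 9.41 to 10.87 in OC2-KO, so the genotypes overlapped throughout.

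Channels opened by calcium or sodium had a median of -0.35 over 5 genes, 4 of them below 0, and -0.038 without OC2-KO replicate 1. Kcnma1, the large-conductance channel, read 10.06, 9.18 and 10.31 (OC2-WT) against 9.01, 9.19 and 10.28 (OC2-KO). Within pairs 2 and 3 the genotypes nearly coincided, and the difference of -0.35 ± 0.43 (SE) came from pair 1. Kcnn1 and Kcnn2, small-conductance channels, differed by 0.18 and -0.40, and the sodium-activated channel gene Kcnt1 by -0.15. Of the tandem-pore leak channels, Kcnk1 and Kcnk3 differed by -0.012 and -0.19.

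Auxiliary subunits of potassium channels were the family with the most genes above 0, 7 of 10, with a median of 0.049. Kcnip2, a partner of the transient Kv channels, went the other way in 3 of 3 pairs. Its values were 8.38, 8.61 and 8.46 (OC2-WT) against 7.67, 8.55 and 7.95 (OC2-KO). The difference was -0.43 ± 0.27 (SE), and OC2-KO replicate 2 overlapped the OC2-WT arrays. Kcne1l, a small single-span subunit, read 7.58, 7.02 and 6.81 (OC2-WT) against 7.38, 7.79 and 7.40 (OC2-KO), with a difference of 0.39 ± 0.27 (SE). Kcnab1, Kcne2 and Kcnip4 differed by 0.12, 0.12 and 0.088, and Kcnab2, Kcnab3 and Kcnmb4 by 0.044, 0.053 and 0.036. Kcnip1 and Kcnip3 differed by -0.39 and -0.21 on their brightest probe sets, and on that of Kcnip3 both arrays of pair 1 were low, at 5.51 and 5.52. The other Kcnip3 probe set past the filter differed by -0.60 ± 0.28 (SE) (limma, unadjusted p = 0.0706). On it each OC2-KO array lay below each OC2-WT array, and OC2-WT replicate 1 was not low, at 7.92.

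Sodium channel pores carry the spikes of ganglion and some amacrine cells. Scn1a read 10.79, 10.97 and 10.82 (OC2-WT) against 10.51, 11.21 and 10.39 (OC2-KO), a difference of -0.16 ± 0.27 (SE). Scn2a, Scn8a and Scn3a differed by -0.13, -0.10 and 0.066, the sodium-sensing glial relative Scn7a differed by 0.099, and the interval of Scn2a ran from -0.75 to 0.49 (limma, 95%). The median over the 5 pores was -0.10, and 0.12 without OC2-KO replicate 1. Within pairs 1, 2 and 3 it was -0.29, 0.24 and -0.22. Of the beta subunits, cell adhesion proteins that modulate the pore, Scn2b and Scn3b differed by -0.14 and -0.17, and Scn4b, measured only through OC2-KO, by 0.23 ± 0.41 (SE). The hyperpolarization-activated channels Hcn2 and Hcn3, which give pacemaker current, differed by -0.097 and -0.23. Without OC2-KO replicate 1 Hcn3 stood at 0.15, but within pairs 1, 2 and 3 it differed by -0.43, 0.0078 and -0.27. The noncoding RNA Kcnq1ot1 differed by -0.10 ± 0.61 (SE). Of the 45 channel symbols below the filter, the nearest to it was the leak channel gene Kcnk2, at 7.28, 6.98 and 6.51 (OC2-WT) against 6.60, 7.48 and 6.84 (OC2-KO), a difference of 0.046.

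**Figure D4:**
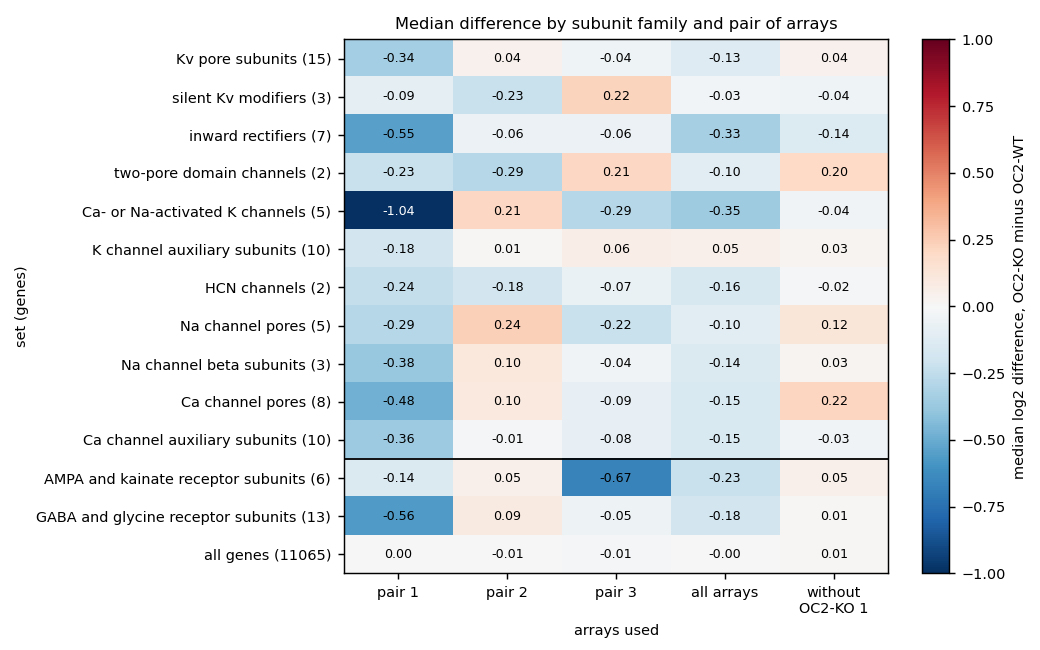
Median log2 difference between OC2-KO and OC2-WT (color and printed value) for 11 subunit families, 2 groups of ligand-gated receptors and all genes (vertical axis, number of genes in brackets), within each pair, over all arrays and without OC2-KO replicate 1 (horizontal axis). Pair 1 is below 0 in each family, from -1.04 for channels opened by calcium or sodium to -0.088 for silent Kv modifiers, and it is the lowest of the 3 pairs except in the silent modifiers and the tandem-pore channels, where pair 2 is lower. Pairs 2 and 3 hold values of both signs.

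Ligand-gated receptor subunits leaned the same way as the voltage-gated ones. Of 13 GABA and glycine receptor subunits 11 were below 0, with a median of -0.18, and of 6 AMPA and kainate receptor subunits 6 were, with a median of -0.23. Without OC2-KO replicate 1, but with OC2-WT replicate 1 kept, these medians were 0.013 and 0.050. Within pairs 1, 2 and 3 the GABA and glycine medians were -0.56, 0.092 and -0.047. The AMPA and kainate medians were -0.14, 0.054 and -0.67, so that group was lowest in pair 3. No gene of either group passed an unadjusted p of 0.05 (limma), and the difference between these groups and the channel genes was not tested.

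Partner genes, whose products anchor, modify or resemble these channels, were taken from a list of 44, of which 40 were on the array and 34 measured. By limma 0 passed an adjusted p of 0.05 and 0 an unadjusted p of 0.05, and 27 were below 0, with a median of -0.12 that was -0.066 without OC2-KO replicate 1. The smallest p belonged to Fgf12, a cytoplasmic modulator of sodium channel inactivation, with values of 11.51, 11.15 and 11.57 (OC2-WT) against 10.84, 11.20 and 11.24 (OC2-KO). Its difference was -0.32 ± 0.23 (SE). Fxyd6, a regulator of the sodium pump, differed by -0.38, the calcium-binding channel modulator Cabp1 by -0.29, Fgf11 by -0.25, the synaptic scaffold gene Dlg4 by -0.26 and the adaptor gene Stac2 by -0.20. Among the 5 genes the rule leaves out, the photoreceptor calcium channel genes Cacna1f, Cacna2d4 and Cacnb2 differed by 0.0024, 0.097 and -0.074, the Müller glia gene Kcnj10 by 0.29 in 3 of 3 pairs, and Kcnj8 did not pass the filter.

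Horizontal cell markers, of which Lhx1 and Gja10 did not pass the filter, moved with genotype. Their summed intensity over 5 genes was 10366 to 12574 in OC2-WT and 6170 to 8023 in OC2-KO without overlap, and 4 of 5 were below 0. Calb1, a calcium-binding protein of these cells, read 12.27, 12.25 and 12.49 (OC2-WT) against 11.30, 11.60 and 11.84 (OC2-KO). Microglial markers were above 0 in 7 of 7 cases, with summed intensity of 2456 to 2942 in OC2-WT and 3384 to 4196 in OC2-KO, bipolar markers were below 0 in 5 of 6 cases and amacrine markers in 6 of 7, with medians of -0.28 and -0.17. Cone, rod and lens markers were above 0 in 6 of 6, 6 of 6 and 5 of 5 cases, with medians of 0.26, 0.064 and 0.91. Median deviations of the rod markers by array ran from -0.76 to 0.84. For lens markers they were 1.38, 0.34 and -3.15 (OC2-WT) against 1.18, 1.51 and -0.21 (OC2-KO), so OC2-WT replicate 3 stood apart. Reactive glia markers were above 0 in 3 of 4 cases with a median of 0.99. Of these, 2 (Gfap and Cd44) were higher without overlap between genotypes, where 1.95% of all genes were. The study had named Gfap and Cd44 as higher, and Calb1 and Septin4 as lower, from these arrays, so they are no independent check. The part of these cell types in the channel values was not tested.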

How the data were processed

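Total RNA of adult retina was amplified, biotin-labelled and hybridised by the authors to Affymetrix whole-genome mouse arrays, 3 per genotype. The authors processed the scans with MAS5 (version not given in the sources used here) and deposited linear-scale intensities for 45101 probe sets. Each array has a 2% trimmed mean of 500, which removes any shift common to all genes.

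Control probe sets (64) were left out, log2 was taken, and 21176 probe sets with a mean over 7 in either genotype were kept, as in the study's methods. Of all probe sets, 34945 had 1 symbol, 932 several and 9160 none, and genes were named from the first alone. Symbols and promoters came from the platform annotation and from RefSeq tables of GRCm38.p6. OC2-KO was compared with OC2-WT with limma 3.58.1 (lmFit, then eBayes; R 4.3.3), two-sided, without a block, with Benjamini-Hochberg adjustment over all probe sets kept, after a check on simulated data. Counts over genes used the brightest probe set per gene.

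The members, the families, the partner and marker lists and the tests were chosen with earlier results of these data known. Genes named were the 10 with the smallest p in each direction, those whose genotypes did not overlap, and a list of channels known in retina, 42 in all. Arrays sharing a replicate number deviated together from their genotype means (r of 0.576, 0.590 and 0.585), and those with unlike numbers did not (r from -0.429 to -0.135). The numbers were therefore taken as pairs, which the labels do not state. Alternatives were other filters, scalings, variance models, tests and probe set rules, the replicate block, and leaving out arrays or pairs. Keeping only genes past the filter in both genotypes, and leaving out OC2-KO replicate 1 over the same genes, were added after seeing the data.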

Additional observations from a re-analysis of the deposited data

How the results depend on the processing

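No channel gene passed an adjusted p of 0.05 under any of the 23 alternatives run. Of the 42 named genes, 14 kept their sign in each alternative that gave them a value, and Cacna1c, Cacna1s, Kcne1l, Kcnh3, Kcnj3 and Kcnu1 among these had none at the filter of 8. With arrays or pairs left out and the filter applied again, the median channel difference ran from -0.32 to 0.038, the channel genes at an unadjusted p of 0.05 from 1 to 5, those without overlap from 5 to 17, and all genes at that p from 99 to 237. Fewer arrays leave fewer values to overlap, so the counts without overlap cannot be set beside the count from all arrays. The share of all genes without overlap was not counted in these settings. Without OC2-KO replicate 1 over the same genes the median was 0.033. Leaving out arrays turned the sign of the following log2 differences. Their ranges were Cacna1a (-0.46 to 0.14), Cacna1b (-0.31 to 0.29), Cacna1d (-0.55 to 0.37), Cacna1e (-0.39 to 0.27), Cacna1g (-0.43 to 0.22), Cacna1h (-0.78 to 0.088), Cacna2d2 (-0.50 to 0.30), Cacnb4 (-0.43 to 0.30) and Hcn2 (-0.31 to 0.058). Further ranges were Hcn3 (-0.51 to 0.15), Kcna2 (-0.46 to 0.044), Kcna6 (-0.080 to 0.35), Kcnab1 (-0.30 to 0.45), Kcnc1 (-0.24 to 0.17), Kcnc2 (-0.41 to 0.033), Kcnd2 (-0.57 to 0.028), Kcne2 (-0.27 to 0.36) and Kcnip4 (-0.12 to 0.29). The rest were Kcnj14 (-0.21 to 0.11), Kcnj5 (-1.70 to 0.071), Kcnk1 (-0.33 to 0.25), Kcnn1 (-0.038 to 0.33), Kcnv2 (-0.34 to 0.39), Scn2a (-0.36 to 0.052), Scn3a (-0.36 to 0.70), Scn4b (-0.22 to 0.63) and Scn8a (-0.36 to 0.12). With the replicate block 4 channel genes and 391 genes in all were at an unadjusted p of 0.05, and with an intensity trend added 5 and 392. Without a filter 7 of 116 channel genes did not overlap and 410 genes in all were at that p, and at a filter of 8 there were 2 of 51 without overlap. The share of all genes without overlap was not counted at these filters. Among genes past the filter in both genotypes 1 channel gene was at that p and 2 did not overlap. Array weights gave 210 genes in all. The methods name a two-tailed t-test without stating its variances, and taken with equal variances it gave 179 with 3 channel genes. Allowing unequal variances gave 1 channel gene, and neither t-test had a channel gene after adjustment. Signs also turned for Kcnk1 with quantile normalization (0.013), for Cacna1b (-0.21), Kcnab1 (-0.30), Kcnc1 (0.0039), Kcnma1 (0.10), Kcnv2 (0.12) and Scn3a (-0.041) with array weights, and for Cacna1b (-0.24), Kcnc1 (0.018), Kcnip4 (-0.089) and Kcnk1 (0.044) when probe sets of a gene were averaged. The causes were not tested. Differences of faint genes, such as Cacna1c and Kcnu1, were limited by signal near the filter.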
